A study of Homo sapiens with 24 samples.

Results

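AP-1 is the dimeric transcription factor made by the FOS and JUN proteins, and all 7 genes of these families (FOS, FOSB, FOSL1, FOSL2, JUN, JUNB and JUND) were followed here in N/TERT-1 cells, an immortalised human keratinocyte line. They were taken by gene symbol from the 26364 genes of the deposited count table, and earlier results of these data were known when they were chosen. RNA sequencing libraries were compared in 4 genotypes. They were knockdowns labelled KAT2A_KD, KAT2B_KD and KAT2AB_KD (here also called the double knockdown), and the control genotype labelled NT. KAT2A and KAT2B are paralogous histone acetyltransferases, and the study asked how their functions diverge in keratinocytes. Each genotype was sampled at 3 culture stages, Subconfluent, Confluent and Differentiated, the last of which is day 4 in the deposited sample table, with 2 libraries in each of the 12 groups. NT is not spelled out in the labels, which also leave out how the knockdowns were made, whether a group is 1 clone, or whether its libraries come from separate cultures. The p-values below therefore measure only the spread between libraries, which may be technical.

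AP-1 proteins are basic leucine zipper factors. FOS family proteins need a partner to bind DNA and pair with JUN family proteins, which can also pair with each other. The dimers bind the TPA response element TGACTCA and, less often, cyclic AMP response elements, and many genes of keratinocyte differentiation and of wound repair carry such sites. FOS, FOSB, JUN and JUNB are immediate-early genes, whose RNA rises and decays quickly after growth factor or stress signals, and MAP kinases control both their transcription and the stability of their products. FOSL1 (Fra-1) is strongly expressed in proliferating and migrating epithelial cells. JUND is transcribed more steadily than JUN and JUNB in most cells.

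The stretches before the transcription start of 4 members are shown because FOSL2, JUNB and JUND ran together over the groups while FOS did not. The sequences are the 250 bases upstream of the RefSeq start on GRCh38.p14, in the direction of transcription, and capitals mark matches to the motifs named below. FOS lies at chr14:75278578-75278827 on the plus strand, FOSL2 at chr2:28392608-28392857 on the plus strand, JUNB at chr19:12791236-12791485 on the plus strand and JUND at chr19:18281623-18281872 on the minus strand.
FOS: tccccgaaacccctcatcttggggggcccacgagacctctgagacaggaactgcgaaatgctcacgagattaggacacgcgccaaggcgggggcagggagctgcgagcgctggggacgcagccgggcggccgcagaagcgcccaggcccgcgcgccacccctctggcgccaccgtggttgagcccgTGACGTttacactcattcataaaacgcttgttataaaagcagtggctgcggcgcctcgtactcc
FOSL2: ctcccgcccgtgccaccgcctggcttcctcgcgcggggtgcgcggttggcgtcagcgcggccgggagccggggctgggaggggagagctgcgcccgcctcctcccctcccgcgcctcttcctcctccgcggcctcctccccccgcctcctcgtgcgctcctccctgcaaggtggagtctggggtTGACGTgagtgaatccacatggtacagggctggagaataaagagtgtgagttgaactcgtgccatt
JUNB: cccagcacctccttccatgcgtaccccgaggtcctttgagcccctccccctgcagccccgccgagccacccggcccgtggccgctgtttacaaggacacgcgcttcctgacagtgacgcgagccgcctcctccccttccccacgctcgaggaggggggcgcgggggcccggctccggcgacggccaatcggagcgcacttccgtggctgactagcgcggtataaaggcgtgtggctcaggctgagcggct
JUND: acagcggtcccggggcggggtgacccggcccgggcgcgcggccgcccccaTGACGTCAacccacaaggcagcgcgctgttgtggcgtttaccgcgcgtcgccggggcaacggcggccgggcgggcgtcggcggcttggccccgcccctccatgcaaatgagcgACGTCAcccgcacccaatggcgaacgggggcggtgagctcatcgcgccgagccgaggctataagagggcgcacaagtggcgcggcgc
The motifs searched on both strands were the TPA response element TGACTCA, the full cyclic AMP response element TGACGTCA, the variant TGACATCA and the short cyclic AMP element TGACGT, which lies inside the full one. Among 35116 RefSeq promoter windows of the same length, 4.2% held TGACTCA, 1.65% held TGACGTCA, 2.37% held TGACATCA and 7.1% held TGACGT. Of the 7 members 6 were in the sequence table, and FOSL1 was not matched. TGACTCA was in none of the 6 windows. TGACGT began 64 bases before the start of FOS, 66 before that of FOSL2 and 60 before that of FOSB. JUND held the full TGACGTCA 200 bases before its start, which contains TGACGT on both strands, and a further TGACGT on the opposite strand at 87 bases. The window of JUN held TGACATCA at 67 bases, and that of JUNB held no match. These matches describe letters in the windows and not bound sites.

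Replicates are numbered 1 and 2 here, whereas the deposited sample table numbers them 2 and 3. The libraries held 8010178 to 16054003 counts, and TMM scaling factors ran from 0.666 in KAT2B_KD Differentiated replicate 1 to 1.22. In every library of a knockdown, the RNA of the gene or genes named in its label was below both NT libraries of the same stage. The summed level of 8 keratinocyte markers was 14455 to 73013 CPM (read counts scaled to library size, with TMM factors), whereas 6 melanocyte markers summed to 4.71 to 17.6 CPM, 6 leukocyte markers to 0.925 to 13.9 CPM and 4 endothelial markers to at most 3.46 CPM. TYR, CD3E, AIF1 and CDH5 had 0 counts in all libraries. The 6 fibroblast markers summed to 1.44 to 53.7 CPM and were high only through COL1A1 in the Differentiated libraries, while 4 of the 6, COL3A1, DCN, LUM and PDGFRB, were under 1 CPM in all libraries. In such bulk libraries, fewer cells of a type and less RNA per cell cannot be told apart.

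All 7 members passed the filter on low counts, so none was left untested. FOSB passed it through a few libraries only, with 0 to 22 counts per library and at most 1.65 CPM. The other 6 had between 20 and 4048 counts in each library. Variation between libraries, as edgeR's biological coefficient of variation, was smallest for FOSL2 (0.136) and FOSL1 (0.161), intermediate for JUN (0.222) and FOS (0.273), and larger for JUNB (0.369), JUND (0.419) and FOSB (0.550). Changes of the same size were therefore harder to detect in JUNB and JUND than in FOSL1 and FOSL2.

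**Figure D1:**
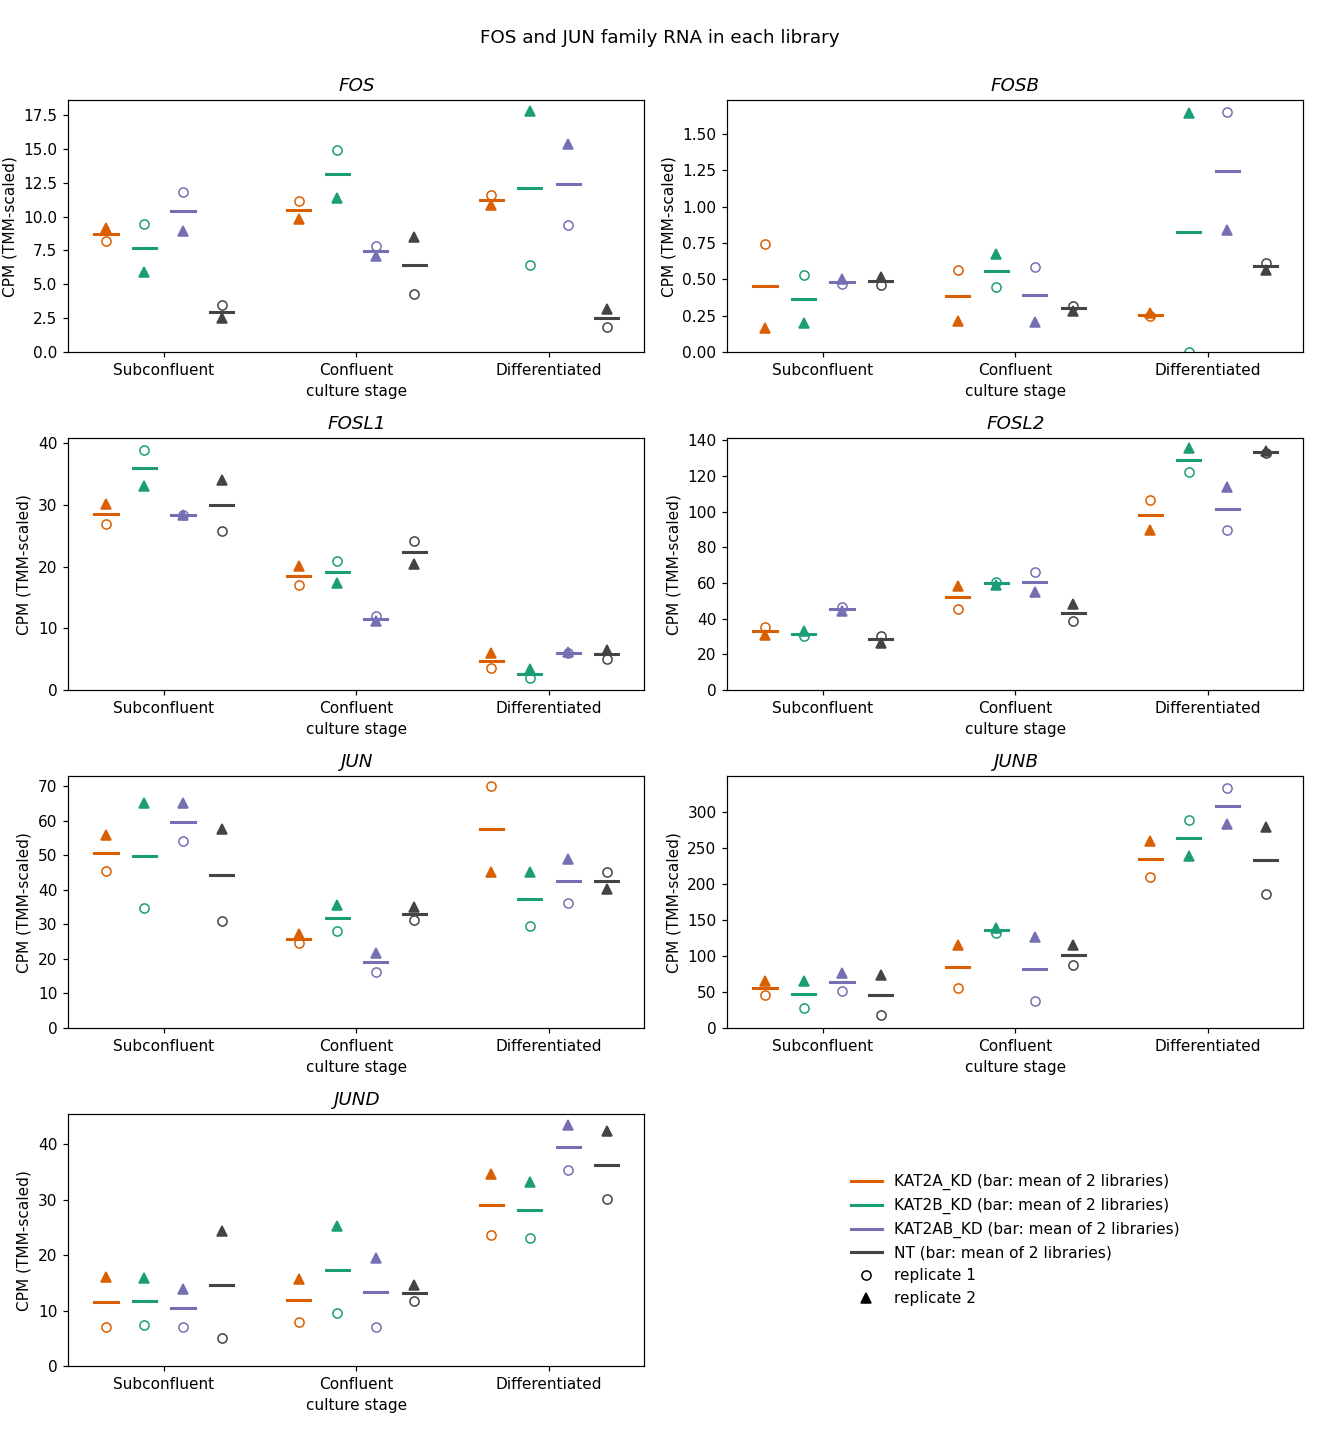
Level of each FOS and JUN family member in CPM (TMM-scaled, vertical axis, linear and starting at 0) in each of the 24 libraries, by culture stage and genotype; open circles are replicate 1, triangles replicate 2 and bars the mean of 2 libraries. The Differentiated mean lies below the Confluent mean for FOSL1 and above it for FOSL2, JUNB and JUND in every genotype, and FOS in NT stays at or below 3.44 CPM in the Subconfluent and Differentiated libraries, under all knockdown libraries of those stages.

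Per length of exon sequence, JUNB had the highest median share at all 3 stages. It was the leading member in 6 of 8 Subconfluent, 8 of 8 Confluent and 8 of 8 Differentiated libraries. In the other 2 Subconfluent libraries FOSL1 led, with 36.4% against 26.7% for JUNB in KAT2B_KD replicate 1 and 33.9% against 24.5% in NT replicate 1. Levels in CPM were divided by the union of exons of each gene in the GENCODE v29 basic set, 1820 bases for JUNB to 6794 bases for FOSL2, and expressed as shares of the sum over the 7 genes. The JUNB share had a median of 40.1% over the 8 Subconfluent libraries, 61.9% over the 8 Confluent and 71.8% over the 8 Differentiated libraries. The FOSL1 share had medians of 20.8%, 10.8% and 1.46% at the same stages, and the JUN share 19.8%, 8.95% and 6.45%. The JUN family as a whole made up a median of 68.2% of the per-length sum in Subconfluent, 77.3% in Confluent and 88.4% in Differentiated libraries, with ranges of 50.3 to 74.9%, 60.3 to 83.9% and 85.1 to 91.4%. These lengths come from another genome build than the hg19 named for the counts and are approximate, and shares of a sum move together by construction.

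**Figure D2:**
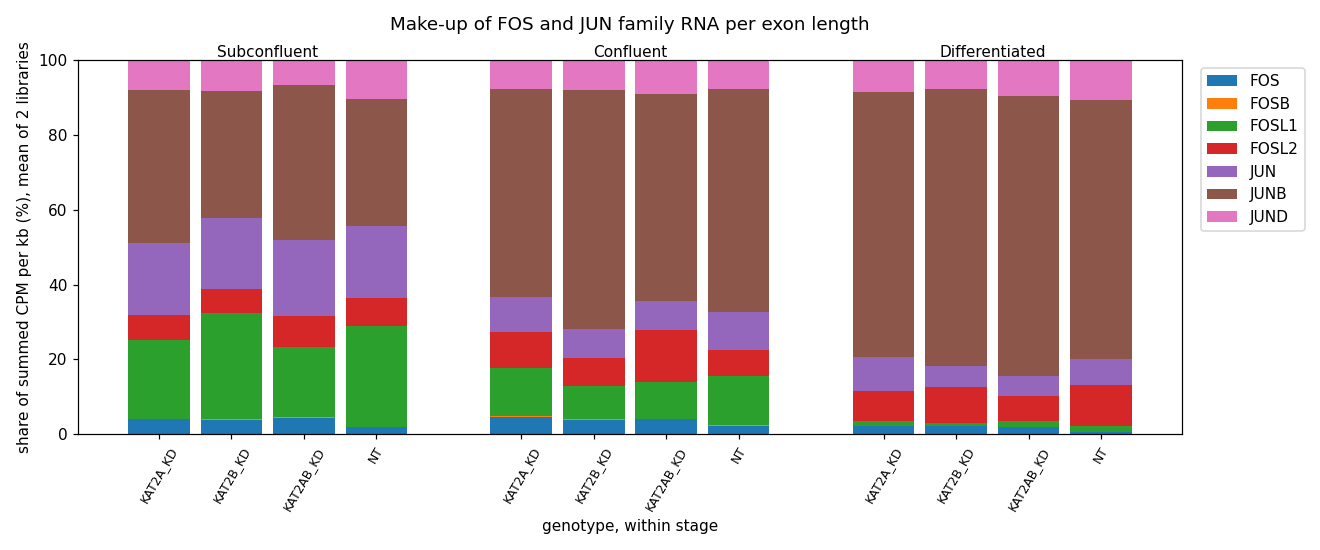
Share of each member in the summed per-length level (CPM per kilobase of exon, percent, vertical axis) of the FOS and JUN family, as the mean of 2 libraries in each genotype and culture stage. JUNB takes the largest block in every bar and grows with stage, and the FOSL1 block shrinks to a median of 1.46% in Differentiated libraries.

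The first question was how the family changed when confluent keratinocytes differentiated. FOSL1 fell and FOSL2 rose in all 4 genotypes. JUNB rose in KAT2A_KD and the double knockdown, JUN rose in the same knockdowns, JUND rose in the double knockdown, and FOS fell in NT. With edgeR's quasi-likelihood test and Benjamini-Hochberg adjustment over 15757 genes at an adjusted p under 0.05, 4 of 7 members passed in KAT2A_KD, 2 in KAT2B_KD, 5 in KAT2AB_KD and 3 in NT. Large parts of the transcriptome passed the same comparisons, namely 43.1% of tested genes in KAT2A_KD, 39.6% in KAT2B_KD, 46.2% in KAT2AB_KD and 50.4% in NT, so the members' counts are not apart from this background. COL1A1, the fibroblast marker with the highest level, also rose between these stages in each genotype, with 31.0 to 51.1 CPM in Differentiated and 1.07 to 6.19 CPM in Confluent libraries, and its part in the result was not tested.

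FOSL1 had 3.52 and 6.02 CPM in Differentiated KAT2A_KD libraries, against 16.98 and 20.1 CPM in Confluent ones. In KAT2B_KD it had 1.87 and 3.44 CPM, against 20.8 and 17.4 CPM, and in KAT2AB_KD 6.01 and 6.08 CPM, against 11.95 and 11.2 CPM. In NT it had 5.08 and 6.51 CPM in Differentiated libraries, against 24.1 and 20.5 CPM in Confluent ones. All Differentiated libraries were below all Confluent libraries, and the smallest fold was in the double knockdown, whose Confluent libraries were the lowest of that stage. The log2 fold change was -1.96 ± 0.27 (SE from the fit) in KAT2A_KD, -2.82 ± 0.29 in KAT2B_KD, -0.93 ± 0.26 in KAT2AB_KD and -1.94 ± 0.27 in NT, with adjusted p of 8.88e-06, 2.01e-07, 0.00657 and 5.61e-06 in the same order of genotypes.

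FOSL2 (Fra-2) had 106 and 89.4 CPM in Differentiated KAT2A_KD libraries, against 45.6 and 58.1 CPM in Confluent ones. In KAT2B_KD it had 122 and 135 CPM, against 60.6 and 58.9 CPM, and in KAT2AB_KD 89.4 and 114 CPM, against 66.1 and 54.7 CPM. In NT it had 133 and 134 CPM, against 38.8 and 47.9 CPM. The Differentiated libraries were above all Confluent libraries in every genotype. The log2 fold change was 0.92 ± 0.19 in KAT2A_KD, 1.11 ± 0.19 in KAT2B_KD, 0.75 ± 0.18 in KAT2AB_KD and 1.62 ± 0.19 in NT, with adjusted p of 0.000493, 8.39e-05, 0.00238 and 7.04e-07. The calls for FOSL1 and FOSL2 held with any 1 library left out, and those in KAT2AB_KD did not pass when only the 4 libraries compared were fitted (adjusted p = 0.0562 for FOSL1 and 0.0750 for FOSL2).

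JUNB is known for restraining proliferation and inflammation in keratinocytes. In Differentiated libraries it had 209 and 260.3 CPM in KAT2A_KD, 289 and 238 CPM in KAT2B_KD, 334 and 283 CPM in KAT2AB_KD and 187 and 279 CPM in NT. Confluent libraries had 55.3 and 114 CPM in KAT2A_KD, 132 and 139 CPM in KAT2B_KD, 37.2 and 127 CPM in KAT2AB_KD and 87.9 and 115 CPM in NT. Every Differentiated library was above every Confluent one, and the Confluent pairs of KAT2A_KD and KAT2AB_KD lay far apart. JUNB rose in KAT2AB_KD (log2 fold change 1.91 ± 0.55, adjusted p = 0.00761) and in KAT2A_KD (1.47 ± 0.55, adjusted p = 0.0353). It did not pass in KAT2B_KD (0.96 ± 0.54, adjusted p = 0.168) or NT (1.20 ± 0.54, adjusted p = 0.0725), although both passed when only the 4 libraries compared were fitted (adjusted p = 0.0201 in KAT2B_KD and 2.37e-05 in NT). Without KAT2AB_KD Confluent replicate 1 the call in KAT2AB_KD was lost (log2 fold change 1.28, adjusted p = 0.0958), without Confluent replicate 2 the value was 3.05, and the call in KAT2A_KD was lost without Confluent replicate 1 (0.256), Differentiated replicate 1 (0.0598) or Differentiated replicate 2 (0.128). Without KAT2A_KD Confluent replicate 2 its value was 2.08.

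JUND showed the same direction at lower counts. It had 23.6 and 34.6 CPM in Differentiated KAT2A_KD libraries, 23.1 and 33.3 CPM in KAT2B_KD, 35.4 and 43.5 CPM in KAT2AB_KD and 30.2 and 42.4 CPM in NT. The Confluent libraries had 7.93 and 15.7 CPM in KAT2A_KD, 9.50 and 25.3 CPM in KAT2B_KD, 7.03 and 19.6 CPM in KAT2AB_KD and 11.8 and 14.5 CPM in NT. The stages did not overlap within a genotype except in KAT2B_KD, where Confluent replicate 2 lay above Differentiated replicate 1. JUND rose in KAT2AB_KD (log2 fold change 1.58 ± 0.62, adjusted p = 0.0427), a call lost without Confluent replicate 1 (0.276), Differentiated replicate 1 (0.0590) or Differentiated replicate 2 (0.135), with DESeq2 (0.0542) and with upper-quartile scaling (0.0617). Without KAT2AB_KD Confluent replicate 2 its value was 2.49. In KAT2A_KD the value was 1.31 ± 0.63 (adjusted p = 0.1005), in KAT2B_KD 0.71 ± 0.61 (adjusted p = 0.385) and in NT 1.46 ± 0.62 (adjusted p = 0.0559). In KAT2A_KD and NT it passed when only the 4 libraries compared were fitted (adjusted p = 0.00275 in KAT2A_KD and 2.57e-06 in NT), and in NT also with RLE factors (0.0481).

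JUN, the prototype partner of FOS, passed in the same knockdowns as JUNB, with smaller fold changes. It had 70.2 and 45.1 CPM in Differentiated KAT2A_KD libraries, 29.6 and 45.3 CPM in KAT2B_KD, 36.2 and 49.1 CPM in KAT2AB_KD and 45.1 and 40.2 CPM in NT. The Confluent libraries had 24.6 and 27.2 CPM in KAT2A_KD, 28.0 and 35.7 CPM in KAT2B_KD, 16.3 and 21.8 CPM in KAT2AB_KD and 31.2 and 35.0 CPM in NT. Only in KAT2B_KD did the stages overlap. JUN rose in KAT2A_KD (log2 fold change 1.16 ± 0.32, adjusted p = 0.00641) and KAT2AB_KD (1.16 ± 0.32, adjusted p = 0.00567), with KAT2B_KD at 0.24 ± 0.32 (adjusted p = 0.588) and NT at 0.37 ± 0.32 (adjusted p = 0.352). The call in KAT2A_KD was lost without Confluent replicate 1 (0.0587) or Differentiated replicate 1 (0.106), and that in KAT2AB_KD without Confluent replicate 1 (0.0608) or Differentiated replicate 2 (0.0603).

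FOS fell between these stages in NT (log2 fold change -1.35 ± 0.45, adjusted p = 0.0171), where the Differentiated libraries had 1.84 and 3.21 CPM, against 4.32 and 8.47 CPM in Confluent ones. The NT libraries of both stages did not overlap. The call was lost without NT Confluent replicate 2 (adjusted p = 0.243) or NT Differentiated replicate 1 (0.174). In the knockdowns FOS did not pass, with log2 values of 0.10 ± 0.40 in KAT2A_KD, -0.11 ± 0.39 in KAT2B_KD and 0.73 ± 0.40 in KAT2AB_KD. FOSB passed in no genotype. It had 3 and 3 counts in Differentiated KAT2A_KD libraries, 0 and 22 in KAT2B_KD, 20 and 11 in KAT2AB_KD and 7 and 6 in NT, and its Confluent libraries had 2 to 11 counts. The count of 0, in KAT2B_KD Differentiated replicate 1, allows up to 3 counts or 0.281 CPM, for counting error only.

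**Figure D3:**
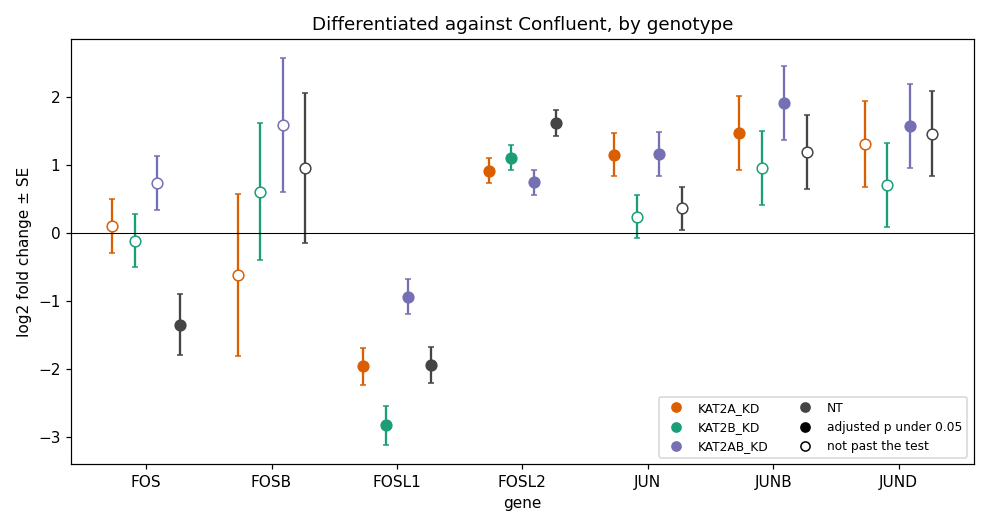
Log2 fold change of each FOS and JUN family member in Differentiated against Confluent libraries (vertical axis, ± SE) by genotype; filled points passed edgeR's quasi-likelihood test at an adjusted p under 0.05 and open points did not. FOSL1 lies below 0 and FOSL2 above 0 with filled points in all 4 genotypes, and FOS in NT, at -1.35, is the only filled FOS point.

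The stages were also set side by side by replicate number, although the labels do not say what it marks and it was not taken as pairing. Over the 8 pairs of a genotype and a replicate number, the Differentiated library was above the Confluent one in 8 of 8 pairs for FOSL2, JUN, JUNB and JUND, and below it in 8 of 8 pairs for FOSL1. The median ratio was 2.19 for FOSL2, 1.55 for JUN, 2.25 for JUNB, 2.50 for JUND and 0.255 for FOSL1. FOS was above in 5 of 8 pairs, with a median ratio of 1.08, and FOSB in 6 of 8. For JUN and JUND in KAT2B_KD, whose stages overlapped, the order within pairs rests on the numbering. The share of all genes ordered in this way was not counted, and 39.6% to 50.4% of tested genes passed the test at this step.

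Fewer members passed at the step between the pre-differentiation stages, Confluent against Subconfluent. FOSL2 rose in KAT2B_KD and FOSL1 and JUN fell in the double knockdown, whereas no member passed in KAT2A_KD or NT. Thus 1 of 7 members passed in KAT2B_KD (1.61% of tested genes passed), 2 in KAT2AB_KD (0.609%), 0 in KAT2A_KD (0.235%) and 0 in NT (0.901%) by edgeR's quasi-likelihood test. At an unadjusted p under 0.05 there were 3 members in KAT2A_KD and 3 in NT, and DESeq2 called 0 members in KAT2A_KD and 1 in NT. Set side by side by replicate number, FOSL2 was higher and FOSL1 lower in the Confluent library in 8 of 8 pairs. JUN was lower in 7 of 8, while JUNB was higher in 7, FOS and JUND in 6 and FOSB in 3. The share of all genes ordered in this way was not counted, and the numbers were not taken as pairing.

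FOSL2 had 60.6 and 58.9 CPM in Confluent KAT2B_KD libraries, against 30.1 and 32.8 CPM in Subconfluent ones (log2 fold change 0.93 ± 0.19, adjusted p = 0.0124). FOSL1 had 11.95 and 11.2 CPM in Confluent KAT2AB_KD libraries, against 28.5 and 28.5 CPM in Subconfluent ones (-1.30 ± 0.25, adjusted p = 0.0174). JUN had 16.3 and 21.8 CPM in Confluent KAT2AB_KD libraries, against 54.1 and 65.1 CPM in Subconfluent ones (-1.65 ± 0.32, adjusted p = 0.0185). The libraries of both stages were apart for each of these 3 genes. With 1 compared library fewer, none of the 3 calls was kept, and those of FOSL2 (adjusted p = 0.0805) and FOSL1 (0.0762) were also lost when only the 4 libraries compared were fitted. Adjusted p was 0.117 without Confluent replicate 1, 0.0744 without Confluent replicate 2, 0.153 without Subconfluent replicate 1 and 0.0769 without Subconfluent replicate 2 for FOSL2. In the same order of libraries it was 0.101, 0.173, 0.131 and 0.157 for FOSL1, and 0.152, 0.0781, 0.0850 and 0.240 for JUN. The remaining Subconfluent values of JUN were 45.5 and 55.9 CPM in KAT2A_KD, 34.8 and 65.1 CPM in KAT2B_KD and 31.0 and 57.6 CPM in NT, where replicate 2 was the higher library each time.

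The second question was whether the knockdowns changed the family relative to NT, and FOS was the member that differed most. FOS was higher than NT in the Differentiated stage in all 3 knockdowns, 4.46-fold in KAT2A_KD, 4.84-fold in KAT2B_KD and 4.92-fold in KAT2AB_KD, and in the Subconfluent stage in the double knockdown, 3.47-fold. FOSL1 was lower than NT in Differentiated KAT2B_KD. No other member passed in a knockdown against NT. These 9 comparisons share the NT libraries of their stage, so the 3 values at a stage are not independent of each other.

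In Differentiated libraries FOS had 11.6 and 10.9 CPM in KAT2A_KD, 6.45 and 17.8 CPM in KAT2B_KD and 9.39 and 15.4 CPM in KAT2AB_KD, against 1.84 and 3.21 CPM in NT. All 6 knockdown libraries were above both NT libraries, although those of KAT2B_KD lay far apart. In KAT2A_KD 1 of 7 members passed (1.22% of tested genes passed), 2 in KAT2B_KD (4.85%) and 1 in KAT2AB_KD (2.74%). The log2 fold change of FOS was 2.16 ± 0.45 in KAT2A_KD (adjusted p = 0.0221), 2.28 ± 0.45 in KAT2B_KD (adjusted p = 0.00462) and 2.30 ± 0.45 in KAT2AB_KD (adjusted p = 0.0102). In KAT2A_KD the call was lost without either KAT2A_KD library (0.108 without replicate 1, 0.0670 without replicate 2) or either NT library (0.194 and 0.109). In KAT2B_KD it was lost without KAT2B_KD replicate 2 (0.0982, with a log2 fold change of 1.35) or NT replicate 1 (0.0822), and in KAT2AB_KD without KAT2AB_KD replicate 2 (0.0544), NT replicate 1 (0.108) or NT replicate 2 (0.0527).

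In Subconfluent libraries FOS had 8.22 and 9.15 CPM in KAT2A_KD, 9.43 and 5.94 CPM in KAT2B_KD and 11.8 and 8.97 CPM in KAT2AB_KD, against 3.44 and 2.49 CPM in NT. Again all 6 knockdown libraries were above both NT libraries. FOS passed in KAT2AB_KD (log2 fold change 1.80 ± 0.43, adjusted p = 0.0260), as the 1 of 7 members to do so against 2.70% of tested genes. It did not pass in KAT2A_KD (1.54 ± 0.43, adjusted p = 0.200) or KAT2B_KD (1.36 ± 0.43, adjusted p = 0.581), where 0 of 7 members passed by edgeR against 0.343% and 0.0888% of tested genes, with 1 member each at an unadjusted p under 0.05 and 0 by DESeq2. The call in KAT2AB_KD was lost without KAT2AB_KD replicate 1 (adjusted p = 0.199), KAT2AB_KD replicate 2 (0.0702), NT replicate 1 (0.102) or NT replicate 2 (0.237). FOSL2, at 46.5 and 44.1 CPM in KAT2AB_KD against 30.5 and 26.2 CPM in NT, was the next member in this comparison (0.68 ± 0.19, adjusted p = 0.0598).

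At the Confluent stage the groups came closer. FOS had 11.1 and 9.79 CPM in KAT2A_KD, 14.9 and 11.4 CPM in KAT2B_KD and 7.83 and 7.08 CPM in KAT2AB_KD, against 4.32 and 8.47 CPM in NT, so that 4 of 6 knockdown libraries were above both NT libraries. No member passed, where 0.647% of tested genes passed in KAT2A_KD, 0.463% in KAT2B_KD and 2.28% in KAT2AB_KD. By edgeR at an unadjusted p under 0.05 there were 0 members in KAT2A_KD, 2 in KAT2B_KD and 3 in KAT2AB_KD, and DESeq2 called 0, 0 and 1 in the same order. The value closest to the threshold was that of FOSL1 in the double knockdown, with 11.95 and 11.2 CPM in KAT2AB_KD, against 24.1 and 20.5 CPM in NT (log2 fold change -0.95 ± 0.25, adjusted p = 0.0521).

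FOSL1 was lower than NT in Differentiated KAT2B_KD, with 1.87 and 3.44 CPM in KAT2B_KD, against 5.08 and 6.51 CPM in NT (log2 fold change -1.10 ± 0.30, adjusted p = 0.0368). These libraries did not overlap, at 20 or more counts each. The call was lost without KAT2B_KD replicate 1 (adjusted p = 0.303), NT replicate 1 (0.0657) or NT replicate 2 (0.225), with upper-quartile scaling (0.0524) and when only the 4 libraries compared were fitted (0.260). FOSL1 in the other Differentiated knockdowns was 3.52 and 6.02 CPM in KAT2A_KD and 6.01 and 6.08 CPM in KAT2AB_KD.

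**Figure D4:**
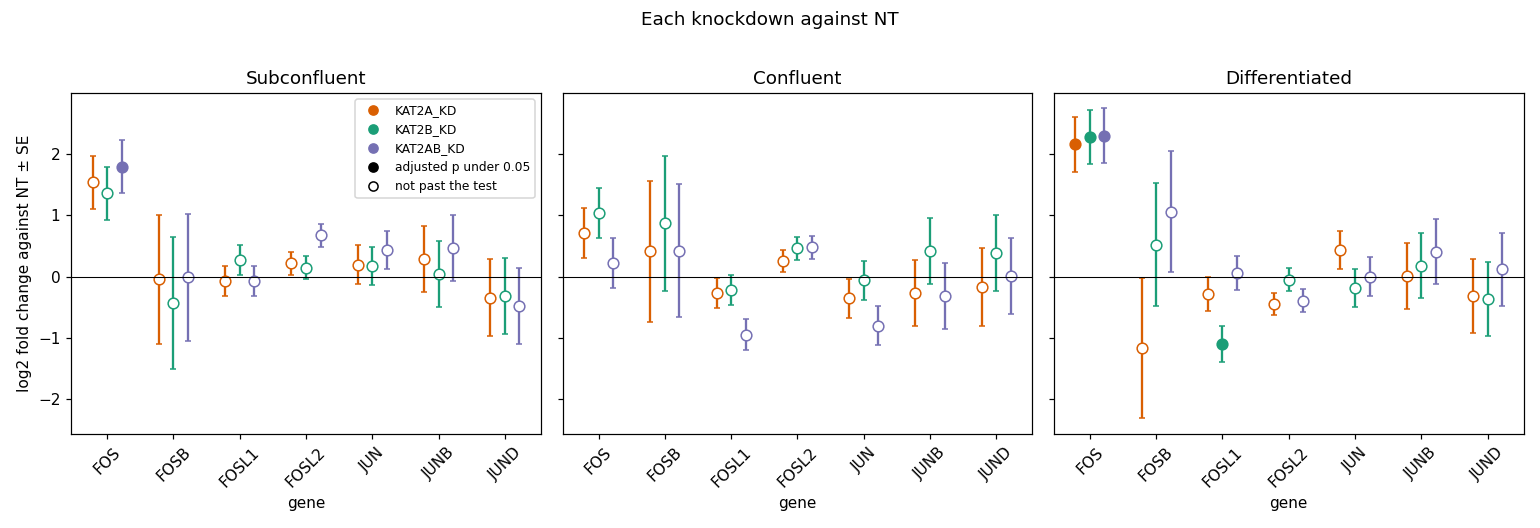
Log2 fold change against NT (vertical axis, ± SE) of each member in the 3 knockdowns at each culture stage; filled points passed at an adjusted p under 0.05. FOS is filled in all 3 knockdowns at the Differentiated stage, at 2.16 to 2.30, and in KAT2AB_KD at the Subconfluent stage, and FOSL1 is filled in Differentiated KAT2B_KD.

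Heat shock genes, which respond to handling and to protein stress, were counted beside FOS. Of 10 tested, 0 passed by edgeR in each of the 9 comparisons of a knockdown with NT. There were 0 to 5 at an unadjusted p under 0.05 and 0 to 2 by DESeq2. Over all tested genes 0.0888% (Subconfluent KAT2B_KD) to 4.85% (Differentiated KAT2B_KD) passed these comparisons. The absence of calls among the 10 is therefore not apart from this background. The median log2 fold change of the heat shock genes ran from -0.58 in Subconfluent KAT2AB_KD to 0.24 in Differentiated KAT2B_KD. Their summed level was 3779 to 6731 CPM over all libraries and was highest in KAT2B_KD Differentiated replicate 1. Whether handling or stress had a part in the FOS values was not tested.

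Between knockdowns, 1 member passed in 1 of 9 comparisons. KAT2A_KD against KAT2B_KD gave 0 of 7 members at each stage, where 0.533% of tested genes passed in Subconfluent, 0.286% in Confluent and 2.38% in Differentiated libraries. The double knockdown against KAT2A_KD also gave 0 at each stage, with 0.00%, 0.00635% and 0.317% of tested genes. Against KAT2B_KD the double knockdown gave 0 in Subconfluent (2.61%) and Confluent (1.61%) libraries and 1 in Differentiated libraries (11.0%). By edgeR at an unadjusted p under 0.05, the 8 comparisons with no call held 0 to 2 members each, and DESeq2 called 0 in each of them. The 1 call was FOSL1, with 6.01 and 6.08 CPM in KAT2AB_KD, against 1.87 and 3.44 CPM in KAT2B_KD (log2 fold change 1.16 ± 0.29, adjusted p = 0.0141). It was lost without KAT2AB_KD replicate 2 (adjusted p = 0.0576), without KAT2B_KD replicate 1 (0.196) and when only the 4 libraries compared were fitted (0.265). The FOS values of KAT2A_KD minus KAT2B_KD were 0.18 ± 0.40 in Subconfluent, -0.33 ± 0.40 in Confluent and -0.12 ± 0.40 in Differentiated libraries on the log2 scale, which does not show that both knockdowns act alike.

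Whether a stage change differed between a knockdown and NT was tested directly as the difference of 2 log2 fold changes. No member passed in any of the 6 such tests by edgeR. For the change Confluent against Subconfluent, 0.00% of tested genes passed in KAT2A_KD, KAT2B_KD and KAT2AB_KD, with 0, 0 and 3 members at an unadjusted p under 0.05 and 0 by DESeq2 in each. For the change Differentiated against Confluent, 0.616% passed in KAT2A_KD, 0.888% in KAT2B_KD and 1.33% in KAT2AB_KD, with 2, 1 and 3 members at an unadjusted p under 0.05 and 0, 0 and 2 by DESeq2. The largest value was that of FOS in the double knockdown, whose change exceeded that of NT by 2.08 ± 0.60 on the log2 scale (adjusted p = 0.105, and 0.0374 with DESeq2). FOSL2 had a difference of -0.87 ± 0.26 in the same test (adjusted p = 0.124, and 0.0375 with DESeq2). A change that passed in one genotype and not in another, as for JUN, JUNB, JUND and FOS above, was therefore not shown to differ between them.

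The libraries called replicate 2 here were higher for some members. JUND was higher in replicate 2 than in replicate 1 in 12 of 12 groups, by a median of 0.98 and at most 2.26 on the log2 scale, the last in Subconfluent NT with 24.3 CPM in replicate 2 and 5.09 CPM in replicate 1. JUNB was higher in 10 of 12 groups (median 0.55) and JUN in 10 of 12 (median 0.32). FOSL2 was higher in 6 of 12, FOSL1 in 8 of 12 and FOS in 5 of 12, with medians of -0.01, 0.09 and -0.12. The labels do not say what the replicate number stands for.

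**Figure D5:**
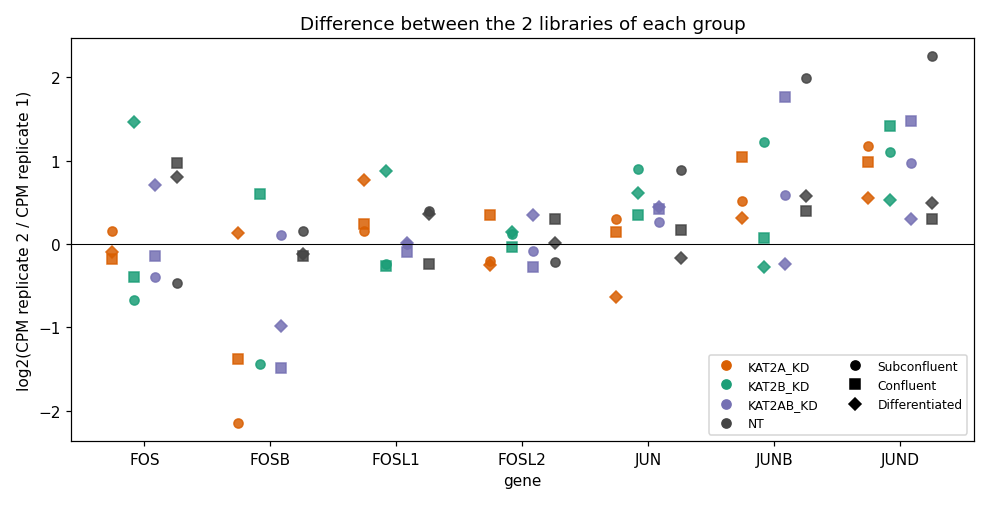
Log2 ratio of CPM in replicate 2 to replicate 1 (vertical axis) for each member, with 1 point per group; colour gives the genotype and shape the culture stage. All 12 JUND points and 10 of 12 JUNB points lie above 0; the FOSB point of KAT2B_KD Differentiated is not drawn because replicate 1 had 0 counts.

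Over the 12 group means, FOSL2, JUNB and JUND ran together and FOSL1 ran against them. Pearson's r of log2 CPM was 0.94 between FOSL2 and JUNB, 0.93 between JUNB and JUND and 0.90 between FOSL2 and JUND, and that of FOSL1 was -0.95 with FOSL2, -0.89 with JUNB and -0.88 with JUND. FOS had values between -0.13 and 0.24 with the others, JUN between -0.05 and 0.17, and FOSB between -0.17 and 0.46. These points share libraries and the 3 stages, and the values are a description. Among 12563 genes with a mean of at least 1 log2 CPM, the profiles most like those of the members were TMEM156 (r = 0.991), DPP9 (0.985) and ETV5 (0.984) for FOSL1, VANGL2 (0.989), PKP1 (0.986) and CXCL14 (0.985) for FOSL2, and S1PR5 (0.982), PYCARD-AS1 (0.982) and PYDC1 (0.976) for JUNB. For JUND they were ABHD17B (0.990), TMEM59 (0.987) and LMBRD1 (0.987). The likeness was lower for FOS, with WDR37 (0.891), C16orf62 (0.795) and ALAD (0.786), for JUN, with HERPUD1 (0.851), KLF6 (0.840) and WNT5B (0.840), and for the sparse FOSB, with MBD1 (0.865), DNAJC5 (0.860) and NPLOC4 (0.855).

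Ordered by group mean, neighbouring groups of FOS overlapped except between Confluent and Subconfluent NT, the groups at 6.39 ± 2.94 and 2.96 ± 0.67 CPM (SD, n = 2 each). The highest of the 12 FOS groups was Confluent KAT2B_KD at 13.1 ± 2.50 CPM and the lowest Differentiated NT at 2.52 ± 0.97 CPM. For JUNB, the breaks in the order lay below the 4 Differentiated groups and below Confluent KAT2B_KD, and for JUND no neighbouring groups were apart. FOSL1 separated into the 4 Subconfluent groups, the 3 Confluent groups of the single knockdowns and NT, Confluent KAT2AB_KD, and the Differentiated groups, of which KAT2B_KD stood lowest.

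Among 7 listed partners of AP-1 of the ATF, BATF and JDP type, 5 could be tested and BATF and BATF3 were not. In Differentiated against Confluent libraries of NT, where 50.4% of all tested genes passed, 2 rose and 2 fell, and without 1 library the number that fell ran from 0 to 2. JDP2, a repressor that dimerises with JUN proteins, rose there 2.83-fold and ATF3, a stress-induced factor, 3.29-fold (adjusted p = 0.000327 and 0.00203). JDP2 was lower in Differentiated KAT2AB_KD than in NT, with 2.31 and 1.67 CPM in KAT2AB_KD, against 7.45 and 7.17 CPM in NT (log2 fold change -1.87 ± 0.31, adjusted p = 0.00243). Its stage change also differed between KAT2AB_KD and NT (-2.55 ± 0.43, adjusted p = 0.00373). Of all tested genes 2.74% passed in the first of these 2 comparisons and 1.33% in the second. In Subconfluent libraries JDP2 was higher than NT in KAT2B_KD and KAT2AB_KD, the 1 partner to pass in each. Of all tested genes 0.0888% and 2.70% passed these comparisons. The first JDP2 call was lost with each of the 4 compared libraries left out in turn. The second was lost without NT replicate 1, NT replicate 2 or KAT2AB_KD replicate 2.

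Of 27 other immediate-early genes, 25 were tested and NR4A2 and NR4A3 were not. In Differentiated against Confluent libraries 12 rose and 4 fell in KAT2A_KD, 7 rose and 8 fell in KAT2B_KD, 17 rose and 3 fell in KAT2AB_KD, and 11 rose and 9 fell in NT. Over all tested genes 43.1%, 39.6%, 46.2% and 50.4% passed in the same order of genotypes. Their median log2 fold change was 0.96, -0.03, 1.32 and 0.59 in the same order of genotypes, beside medians of all tested genes between -0.02 and 0. DUSP1, a phosphatase that switches MAP kinases off, rose by 3.32 ± 0.30 in KAT2AB_KD and by 3.44 ± 0.31 in NT on the log2 scale, and SGK1, a kinase, by 1.74 ± 0.20 in NT. Without 1 library the numbers that rose ran from 8 to 11 in KAT2A_KD and from 6 to 9 in NT, and those that fell from 0 to 2 in KAT2AB_KD.

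The 25 immediate-early genes were also compared with NT, where 2.70% of all tested genes passed in Subconfluent KAT2AB_KD and 2.28% in Confluent KAT2AB_KD. In Differentiated libraries the shares were 1.22% in KAT2A_KD, 4.85% in KAT2B_KD and 2.74% in KAT2AB_KD. In Subconfluent KAT2AB_KD 2 were higher and 1 lower, against 1 higher and 0 to 1 lower without 1 library. EGR1, which like FOS is a serum response target, had 65.3 and 57.5 CPM in KAT2AB_KD, against 17.4 and 17.8 CPM in NT (log2 fold change 1.80 ± 0.30, adjusted p = 0.00154). In Confluent KAT2AB_KD 4 were lower (2 to 5 without 1 library), among them DUSP4 (-2.25 ± 0.24, adjusted p = 1.91e-05) and DUSP6 (-1.71 ± 0.25, adjusted p = 0.000350), both induced by ERK signalling and acting against it, and their stage changes Differentiated against Confluent differed between KAT2AB_KD and NT (2.44 ± 0.33 and 2.73 ± 0.35, adjusted p = 0.000423 and 0.000330). In Differentiated libraries 1 was higher in KAT2A_KD (0 to 2 without 1 library), 0 passed in KAT2B_KD by edgeR (10 at an unadjusted p under 0.05 and 2 by DESeq2) and 4 were higher in KAT2AB_KD, a number that ran from 0 to 5 without 1 library. EGR1, named above for its Subconfluent values, was not among these 4, with 24.7 and 36.1 CPM in KAT2AB_KD, against 24.8 and 36.2 CPM in NT. A shared cause of the EGR1 and FOS values was not tested. In the KAT2AB_KD minus NT difference of the change Differentiated against Confluent, 9 of the 25 were higher and 0 lower. Fewer were higher with some of the compared libraries left out in turn. The median difference of the 25 genes was 1.07 on the log2 scale, and 1.33% of all tested genes passed.

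All 24 listed MAP kinase chain members and AP-1 regulators were tested. In none of the 9 comparisons of a knockdown with NT did any of them pass by edgeR. There were 0 to 8 at an unadjusted p under 0.05 and 0 to 4 by DESeq2. Over all tested genes 0.0888% (Subconfluent KAT2B_KD) to 4.85% (Differentiated KAT2B_KD) passed these comparisons. The absence of calls among the 24 is therefore not apart from this background. Between Differentiated and Confluent libraries 6 rose and 6 fell in KAT2A_KD, 5 rose and 8 fell in KAT2B_KD, 7 rose and 5 fell in KAT2AB_KD, and 9 rose and 7 fell in NT, where 43.1%, 39.6%, 46.2% and 50.4% of all tested genes passed in the same order of genotypes. RPS6KA1 (RSK1), a kinase downstream of ERK, fell in all 4 genotypes, by 0.97 in KAT2AB_KD and 1.55 in NT on the log2 scale.

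Genes with AP-1 sites described in textbooks were split into envelope and keratin genes and protease, matrix and signalling genes. All 10 of the first list rose in Differentiated against Confluent libraries in each of the 4 genotypes, among them IVL, a cornified envelope precursor. Their median log2 fold changes were 5.18 in KAT2A_KD, 6.76 in KAT2B_KD, 3.93 in KAT2AB_KD and 5.96 in NT. Of all tested genes 43.1%, 39.6%, 46.2% and 50.4% passed in the same order of genotypes. The list is made of differentiation genes, and a part of AP-1 in their rise was not tested. Before differentiation, in Confluent libraries, 4 of the 10 were higher in KAT2AB_KD than in NT (median log2 fold change 1.44, 2.28% of all tested genes). The KAT2AB_KD minus NT difference of the differentiation change passed as lower for 5 of the 10 (median -2.16, 1.33% of all tested genes). These numbers, 4 and 5, both fell with some of the compared libraries left out in turn. In Differentiated libraries against NT, 0 of the 10 passed in KAT2A_KD by edgeR (1 at an unadjusted p under 0.05 and 1 by DESeq2), 3 were lower in KAT2B_KD and 1 lower in KAT2AB_KD. Of the 14 genes of the second list, 3 were higher in Differentiated KAT2A_KD, 3 in Differentiated KAT2AB_KD and 0 in Differentiated KAT2B_KD, where 1 was lower. In these Differentiated comparisons with NT, 1.22% of all tested genes passed in KAT2A_KD, 4.85% in KAT2B_KD and 2.74% in KAT2AB_KD. The collagenase MMP1 had 93.2 and 72.1 CPM in KAT2A_KD and 15.6 and 11.2 CPM in KAT2B_KD. It had 133 and 169.8 CPM in KAT2AB_KD, against 16.8 and 14.1 CPM in NT. Its relation to FOS was not tested.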

How the data were processed

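Libraries were made by poly(A) selection with a directional kit and sequenced from 1 end, per the labels' protocols. The submitters' processing notes name FastQC, Bowtie2, featureCounts, DESeq2 and hg19. Versions, annotation, strand setting and multimapping are not given in the sources used here. The deposited read counts per gene were used as they are. The second deposited table, a normalized signal, equals the counts divided by 1 factor per library (largest relative deviation 9.74e-07) and served only as a check. In the count table, 1 column that matched no sample was left out.

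Counts were analysed with edgeR 4.0.16 in R 4.3.3: filterByExpr by group left 15757 genes, with TMM factors and 1 quasi-likelihood fit of 24 libraries in 12 groups. There were 32 comparisons, each Benjamini-Hochberg adjusted over all 15757 genes. Scripts were tested on simulated data. DESeq2 1.42.0, other scalings, no filter, fewer libraries and the replicate block were alternatives.

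All members are named, with up to 2 genes of each list per comparison by lowest p (COL1A1 was named after its values were seen) and 3 like genes each, by r of log2 CPM with a prior count of 2. EGR1, named at the Subconfluent stage, is also given for Differentiated KAT2AB_KD, outside this rule. The members and lists were chosen with earlier results of these data known.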

Additional observations from a re-analysis of the deposited data

How the results depend on the processing

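Of 224 values (7 members in 32 comparisons), 93 changed sign under some alternative, none of them among the 60 with an unadjusted p under 0.05. Counts of members past the test that moved by more than 1.5 times were as follows. Without the filter on low counts they were 1 in KAT2A_KD and 3 in KAT2B_KD for Confluent against Subconfluent, 1 in NT for the same step, 4 in KAT2B_KD and 5 in NT for Differentiated against Confluent, 1 each in Subconfluent KAT2A_KD and KAT2B_KD against NT, 2 in Confluent KAT2AB_KD against NT, and 1 for the KAT2AB_KD minus NT difference of the differentiation change. DESeq2 gave 2 in KAT2B_KD and 1 in NT for Confluent against Subconfluent, 2 in Subconfluent and 1 in Confluent KAT2AB_KD against NT, and 2 for the same difference. Fitting only the libraries compared gave 1 in KAT2A_KD, 0 in KAT2B_KD and 1 in KAT2AB_KD for Confluent against Subconfluent, 3 in KAT2AB_KD and 5 in NT for Differentiated against Confluent, 1 in Differentiated KAT2B_KD against NT and 0 in Differentiated KAT2AB_KD against KAT2B_KD. Upper-quartile factors gave 2 in Subconfluent KAT2AB_KD against NT and 1 in Differentiated KAT2B_KD against NT, and moved the median of all genes by -0.13 (log2) in KAT2AB_KD for Differentiated against Confluent. Factors of the DESeq type in edgeR (RLE) moved none of the 32 counts by that much. Smaller moves, all for Differentiated against Confluent, were 5 in KAT2A_KD without the filter, with only the libraries compared and with the replicate block, 3 in KAT2B_KD with only the libraries compared, 4 in KAT2AB_KD with DESeq2 and with upper-quartile factors, and 4 in NT with RLE factors. The cause of these changes was not tested.

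With the replicate number as a block, 29 of 32 counts were kept within 1.5 times, and the others were 2 in KAT2B_KD for Confluent against Subconfluent, 5 in NT for Differentiated against Confluent and 1 in Confluent KAT2AB_KD against NT. The block added JUNB (adjusted p = 0.0465), JUNB and JUND (0.0215 and 0.00170) and FOSL1 (0.0399) to these comparisons and JUND in KAT2A_KD for Differentiated against Confluent (0.00367), and changed no other call of a member. Deviations of same-numbered libraries correlated above 0.1 in 37 of 66 pairs of groups (median r 0.12, from -0.26 to 0.41). A difference shared by same-numbered libraries was not tested, and the labels do not say what the numbers mark. The numbers were not taken as pairing.

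Leaving out 1 compared library gave 2 to 4 members in KAT2A_KD, 2 to 3 in KAT2B_KD, 2 to 5 in KAT2AB_KD and 2 to 3 in NT for Differentiated against Confluent. It gave 0 in KAT2B_KD and KAT2AB_KD for Confluent against Subconfluent, 0 in Subconfluent KAT2AB_KD and in Differentiated KAT2A_KD against NT, 0 to 1 in Differentiated KAT2B_KD and KAT2AB_KD against NT, and 0 to 2 in Differentiated KAT2AB_KD against KAT2B_KD. In those fits the lone library is assumed to vary like the other groups. Of 276 values of members with an unadjusted p under 0.05, 233 kept their side of the threshold, 43 lost it and 0 reversed. FOSB passed in KAT2B_KD for Differentiated against Confluent and in Differentiated KAT2AB_KD against KAT2B_KD only without KAT2B_KD Differentiated replicate 2 (adjusted p = 0.0456 and 0.0280), which leaves the library with 0 counts.

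Counts over all genes moved by more than 1.5 times in most comparisons outside Differentiated against Confluent. For example, Differentiated KAT2A_KD against NT gave 192 genes, 502 with DESeq2, 506 without the filter and 17 to 98 without 1 library. Differentiated KAT2B_KD against NT gave 764, 428 with only the libraries compared and 298 to 538 without 1 library. Differentiated KAT2AB_KD against NT gave 431, 752 with DESeq2 and 71 to 345 without 1 library. Depth limits FOSB, at 0 to 22 counts, and with 2 libraries a group the spread is borrowed across genes and groups.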
